A study of Homo sapiens with 6 samples.

Results

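The genes described here are 9 secreted angiogenic factors and receptors: VEGFA, VEGFB, VEGFC, PGF, ANGPTL4 and FGF2 as secreted factors, NRP1 and NRP2 as receptors, and THBS1 as a secreted inhibitor. They were taken by name from the gene matrix, whose Ensembl identifiers were matched to symbols, and make up 9 of 60671 annotated genes. RNA had been sequenced from xenografts of MDA-MB-231, a line of human breast cancer cells that lack hormone receptors and HER2, grown in immunodeficient mice, with 3 core (TC) and 3 margin (TM) samples of the tumors. Both groups came from wild-type cells of this 1 line, mixed with Matrigel and injected into the fourth mammary fat pads of female NSG mice (NOD/SCID/IL2Rγ-null) aged 6 to 8 weeks, which lack most lymphocytes but keep their own vessels, fibroblasts and myeloid cells. The zone sampled was thus the only labelled difference between the groups. Whether a core and a margin sample came from the same mouse was not stated, so the p-values measure only the spread between these 6 samples.

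Tumors draw on new vessels that sprout towards gradients of growth factors made by tumor cells. VEGFA and its relatives act through the receptor kinases FLT1, KDR and FLT4 on endothelium, and the neuropilins NRP1 and NRP2 serve as coreceptors that bind these ligands without a kinase of their own. In poorly oxygenated zones the transcription factor HIF raises VEGFA and ANGPTL4, whereas thrombospondin 1, the product of THBS1, restrains endothelial growth through CD36 and CD47.

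Abundance is given in TPM, a unit of transcript abundance corrected for transcript length, which permits levels of different genes to be compared. TPM keeps no read depth, so the depth of each sample was unknown and the precision was judged from the replicates alone. Testing required 1 TPM or more in 3 samples or more, and 8 of the 9 genes were among the 13861 that passed, FGF2 being left out. Each difference is the TC mean less the TM mean of log2(TPM + 1), tested with limma and adjusted over all 13861 genes.

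The libraries differed in RNA of other tissue types. The summed level of 10 skeletal muscle markers was 5.72 to 8.10 TPM in TC, 209 in TM1, 522 in TM2 and 4.50 in TM3, and that of 10 fibroblast markers was 67.7 to 227 TPM in TC, 481 in TM1, 1008 in TM2 and 95.2 in TM3. Both TM1 and TM2 lay above the other 4 libraries in 10 of 10 muscle markers and in 5 of 10 fibroblast markers, of which DCN was listed at 0 in every sample but TM1. The tumor line's cytokeratin KRT8 (356 to 447 TPM) was high throughout, while the epithelial cadherin CDH1 reached at most 0.36 TPM although the label reads "epithelial cell". The summed level of 8 pericyte and smooth muscle markers, which include DES of the muscle list, was 79.2 to 95.3 TPM in TC. It was 294.8, 422.3 and 107.5 TPM in TM1 to TM3. Summed macrophage markers came to 3.49 to 7.40 TPM in TC and to 7.45, 19.4 and 4.38 TPM in TM1 to TM3. Of 10 endothelial markers, PECAM1, VWF and CLDN5 reached at most 1.28, 0.66 and 0.83 TPM, and EMCN was listed at 0 in every sample. ERG, TIE1 and KDR reached at most 0.98, 2.44 and 1.78 TPM. The others of the list were higher, with ESAM at 23.2 to 35.6 TPM, ROBO4 at 7.35 to 12.3 TPM and CDH5 at 1.52 to 4.66 TPM. Reads had been aligned to the human genome, so RNA of the mouse host counts only as far as it matched human genes. In bulk tissue, fewer cells of a type and less RNA per cell cannot be told apart.

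To show where these genes stood in the tumor, their levels were ordered first. THBS1 led with a mean of 229 TPM over the 6 samples, above 95.9% of tested genes, followed by PGF at 121, VEGFA at 116, NRP1 at 86.5 and ANGPTL4 at 81.6 TPM. VEGFB (43.7 TPM), VEGFC (24.8 TPM), NRP2 (9.88 TPM) and FGF2 came after. THBS1 exceeded PGF in 6 of 6 samples, by 1.04 to 3.25 times. By contrast, PGF exceeded VEGFA in only 2 of 6 samples, VEGFA exceeded NRP1 in 5 and NRP1 exceeded ANGPTL4 in 3, so these neighbours in the order did not differ beyond their spread, although PGF was above ANGPTL4 in 6 of 6 samples. From ANGPTL4 downwards, each gene was above the next in 6 of 6 samples. The RNA of the inhibitor THBS1 was thus above that of each ligand in these tumors.

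**Figure D1:**
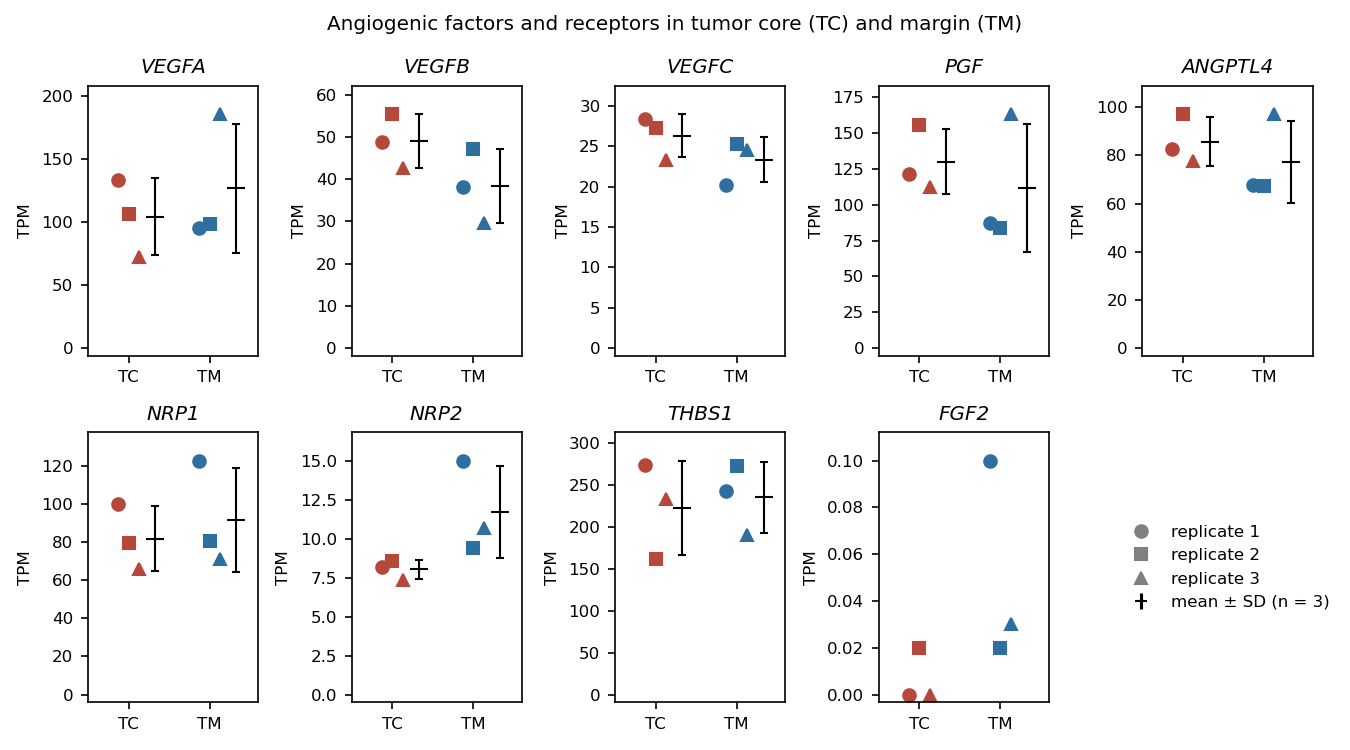
TPM of the 9 genes in each TC and TM sample (vertical axes, linear and separate for each gene), with symbols for the replicate and bars for the mean ± SD (n = 3). FGF2 is shown without a mean because it was listed at or near 0; the TC and TM values overlapped in every tested gene but NRP2.

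In the comparison of TC with TM, 0 of the 8 tested genes passed an adjusted p of 0.05 in limma, against 0.137% of all tested genes (19 of 13861). At an unadjusted p under 0.05 the count was also 0 of 8, where 16.2% of all tested genes passed. The groups did not overlap in 1 of 8 genes, NRP2, against 22.2% of all tested genes. The mean was higher in TC for 4 genes (VEGFB, VEGFC, PGF and ANGPTL4) and lower for 4 (VEGFA, NRP1, NRP2 and THBS1), with a median difference of 0.033, whereas 33.0% of all tested genes were higher in TC and their median difference was -0.14. These splits depended on the scaling of the samples. After rescaling by median-of-ratios factors, 6 of the 8 genes were higher in TC and 2 (VEGFA and NRP2) lower, with a median difference of 0.21, while 47.3% of all tested genes were lower in TC and their median difference was 0.021.

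VEGFA, the principal endothelial growth factor (ENSG00000112715; chromosome 6, 43770184 to 43786487, plus strand; these and the following gene positions are those of GENCODE v29 on GRCh38), was at 134, 107 and 72.5 TPM in TC1, TC2 and TC3 and at 95.6, 98.9 and 186 TPM in TM1, TM2 and TM3. The highest level was in TM3 and the lowest in TC3, and the groups overlapped. The means were 104 ± 30.7 TPM in TC against 127 ± 51.2 in TM (SD, n = 3). The log2 difference was -0.25 (SE 0.30, adjusted p = 0.745 in limma), and its 95% interval allowed 0.521 to 1.35 times the TM level in TC. The sign rested on TM3: without that sample the difference was 0.056. TM3 was also the TM sample with a muscle marker sum at the TC level, and without TM1 and TM2 the difference was -0.87 (adjusted p = 0.225 in limma), with the spread of the lone TM sample taken from TC.

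PGF, a VEGF relative that binds FLT1 and NRP1 (ENSG00000119630; chromosome 14, 74941834 to 74955784, minus strand), was about as abundant as VEGFA. It was at 122, 156 and 113 TPM in TC1 to TC3 and at 87.6, 84.0 and 163 TPM in TM1 to TM3. TM1 and TM2 lay below every TC sample and TM3 lay above every TC sample. In no other of the 8 genes, and in 16.9% of all tested genes, did TM values lie on both sides of all TC values. The means were 130 ± 22.8 TPM in TC and 112 ± 44.8 in TM (n = 3, ± SD; log2 difference 0.27, SE 0.26, adjusted p = 0.665 in limma). The interval ran from 0.802 to 1.82 times the TM level. Without TM3 the difference was 0.58 (unadjusted p = 0.0069, adjusted p = 0.125 in limma), and without TM1 and TM2 it was -0.34.

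VEGFB and VEGFC were less abundant than VEGFA and PGF in every sample. VEGFB, a FLT1 ligand (ENSG00000173511; chromosome 11, 64234538 to 64238793, plus strand), was at 48.9, 55.5 and 42.7 TPM in TC and at 38.3, 47.2 and 29.7 TPM in TM. TM2 overlapped the TC samples and TM3 was the lowest, the reverse of its place for VEGFA and PGF. The means were 49.0 ± 6.37 and 38.4 ± 8.72 TPM (SD, n = 3), a log2 difference of 0.36 (SE 0.19, adjusted p = 0.421 in limma) with an interval of 0.944 to 1.75 times. VEGFC, which acts through FLT4 in lymphatic vessels (ENSG00000150630; chromosome 4, 176683538 to 176792727, minus strand), was at 28.4, 27.3 and 23.3 TPM in TC and at 20.2, 25.3 and 24.6 TPM in TM. The samples of both groups interleaved, with a log2 difference of 0.17 (SE 0.16, adjusted p = 0.677 in limma) and an interval of 0.866 to 1.46 times.

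The 4 VEGF-type ligands summed to 333, 345 and 251 TPM in TC and to 242, 255 and 404 TPM in TM. The sums were 309.7 ± 51.2 TPM in TC against 300.2 ± 89.8 in TM (SD, n = 3) and did not differ beyond this spread (two-sided exact permutation p = 0.9, the smallest possible being 0.1). VEGFA took 40.2, 30.9 and 28.9% of the sum in TC and 39.6, 38.7 and 46.1% in TM (exact permutation p = 0.3). PGF took 36.6, 45.2 and 44.8% in TC and 36.3, 32.9 and 40.5% in TM (exact permutation p = 0.2). VEGFA and PGF together thus made up most of the ligand RNA in every sample. Their ratio came to 1.10, 0.684 and 0.644 in TC and 1.09, 1.18 and 1.14 in TM, where it varied little although both genes were highest in TM3 (exact permutation p = 0.2). A ratio within a sample does not depend on how the samples were scaled to each other.

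**Figure D2:**
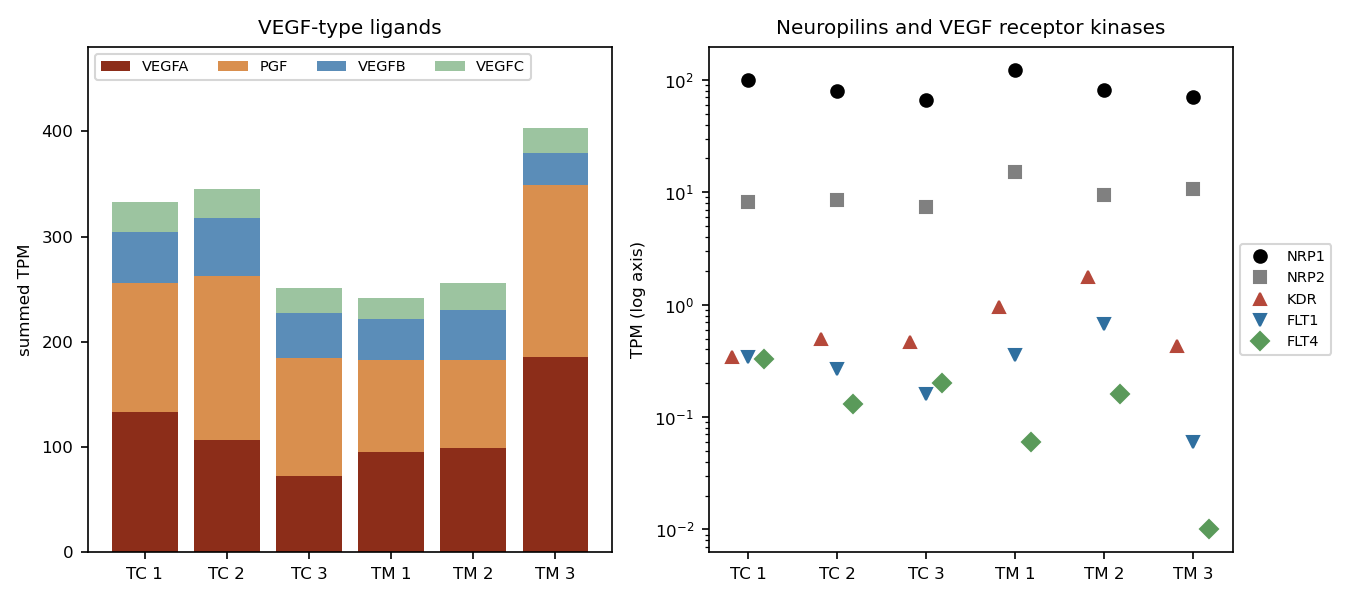
Left, stacked TPM of the 4 VEGF-type ligands in each sample; right, TPM of the neuropilins and of the 3 VEGF receptor kinases on a log axis. TM3 had the highest ligand sum (404 TPM) and TM1 the lowest (242 TPM), and both neuropilins lay above all 3 kinases in each of the 6 samples.

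ANGPTL4, a secreted inhibitor of lipoprotein lipase that also acts on vessels (ENSG00000167772; chromosome 19, 8363289 to 8374373, plus strand), was at 82.5, 97.2 and 77.6 TPM in TC and at 67.6, 67.4 and 97.1 TPM in TM. As with PGF, TM1 and TM2 lay below every TC sample and TM3 lay apart from them, here level with TC2. The means were 85.8 ± 10.2 and 77.4 ± 17.1 TPM (SD, n = 3), with a log2 difference of 0.16 (SE 0.18, adjusted p = 0.720 in limma) and an interval of 0.844 to 1.48 times. Without TM1 and TM2 the difference was -0.18.

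PGF and ANGPTL4 were the 2 genes among the 8 with the most similar profiles. The root mean square distance between their centred log2(TPM + 1) values over the 6 samples was 0.153, and of 9747 genes with a mean of at least 5 TPM, 21 lay nearer to PGF than ANGPTL4 did and 226 lay nearer to ANGPTL4 than PGF did. The likeness is a description over 6 samples, in each of which all genes share the depth and scaling of 1 library. VEGFA was at 0.342 from ANGPTL4 and 0.359 from PGF. The genes with the profile most like that of VEGFA were OSR1 (distance 0.058) and OSBPL10 (0.10), and those most like ANGPTL4 were FTL, the ferritin light chain (0.062), and the ribosomal protein gene RPL13 (0.064).

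Because PGF and ANGPTL4 had the closest profiles, the 250 bases before their RefSeq start sites are shown (GRCh38.p14, 5′ to 3′ on the gene's strand). Capitals mark ACGTG or GCGTG, the core letters of the HIF-binding element, or their reverse complements. The ANGPTL4 window lies at chr19:8363905-8364154 (plus strand) and the PGF window, that of the upstream of its 2 listed starts, at chr14:74955765-74956014 (minus strand).
ANGPTL4: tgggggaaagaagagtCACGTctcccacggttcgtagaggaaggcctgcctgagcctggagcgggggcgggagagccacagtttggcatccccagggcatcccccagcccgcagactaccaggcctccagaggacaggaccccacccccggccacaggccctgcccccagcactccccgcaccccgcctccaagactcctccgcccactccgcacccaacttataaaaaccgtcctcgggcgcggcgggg
PGF: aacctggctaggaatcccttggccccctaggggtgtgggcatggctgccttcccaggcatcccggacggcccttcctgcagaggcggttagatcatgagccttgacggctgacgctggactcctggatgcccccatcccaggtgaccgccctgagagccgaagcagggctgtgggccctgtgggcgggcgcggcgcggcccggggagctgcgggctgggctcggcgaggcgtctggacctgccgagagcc
The ANGPTL4 window held 1 match, CACGT, starting 234 bases before the start, and the PGF window held 0. The window of the other PGF start, which overlaps the first, held 1 GCGTG match, on the opposite strand, 162 bases before that start. RefSeq entries were found for 7 of the 9 genes, with 8 windows, 2 of them the overlapping windows of PGF. None was found for VEGFA and NRP1. Of the 8 windows, 6 held ACGTG or GCGTG on either strand. This compares with 43.2% of all 35114 windows and 55.2% of the 14832 windows of tested genes, although FGF2, whose window is among the 8, was not tested. The GC box GGGCGG was present in 8 of 8 windows, against 42.6% of all windows and 63.3% of those of tested genes. The 8 windows are rich in G and C (68.8 to 82.8%). A match is a string of letters and does not show that a factor binds there, nor does its lack show the reverse.

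NRP1, the more abundant neuropilin (ENSG00000099250; chromosome 10, 33177492 to 33336262, minus strand), was at 99.6, 79.2 and 65.9 TPM in TC and at 123, 80.5 and 71.2 TPM in TM. The highest level was in TM1 and the lowest in TC3, and the groups overlapped. The means were 81.6 ± 17.0 and 91.4 ± 27.4 TPM (SD, n = 3), a log2 difference of -0.14 (SE 0.23, adjusted p = 0.818 in limma) with an interval of 0.628 to 1.31 times. This was close to the median of all tested genes. The sign turned under median-of-ratios rescaling (0.034) and without TM1 (0.086).

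NRP2, the coreceptor for VEGFC and for class 3 semaphorins (ENSG00000118257; chromosome 2, 205681990 to 205798133, plus strand), was at 8.21, 8.56 and 7.36 TPM in TC and at 15.0, 9.42 and 10.7 TPM in TM. Every TM sample lay above every TC sample, though TM2 exceeded TC2 by little. The means were 8.04 ± 0.617 and 11.7 ± 2.94 TPM (SD, n = 3), and the log2 difference of -0.47 (SE 0.22) had an unadjusted p of 0.0639 and an adjusted p of 0.348 in limma, with an interval of 0.510 to 1.02 times. Its sign was the same in all 15 alternative analyses, from -0.60 to -0.28, with adjusted p-values in limma from 0.258 to 0.684. Without TM1 and TM2, the libraries with muscle RNA, the difference was -0.37 (adjusted p = 0.659 in limma), and the part of that RNA in the NRP2 levels was not tested.

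Within a sample, the balance of the neuropilins was compared next. The ratio of NRP1 to NRP2 came to 12.1, 9.25 and 8.95 in TC and 8.16, 8.55 and 6.66 in TM, with no overlap (exact permutation p = 0.1, the smallest possible). The ratios of VEGFB, VEGFC and ANGPTL4 to NRP2 were likewise higher in every TC than in every TM sample, as was that of VEGFB to THBS1 (each exact permutation p = 0.1). These were the 5 of 28 ratios between the 8 genes that did not overlap, against 19.7% of all gene pairs, so their number was close to the background. The distance between the NRP1 and NRP2 profiles was 0.241, and 1881 of 9747 genes lay nearer to NRP1 than NRP2 did. The genes most like NRP1 were HDHD2 (0.055) and IDE, the insulin-degrading enzyme (0.062).

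Among RNA aligned to the human genome, the receptor kinases that the ligands act on were scarcely present. The mouse host keeps its own vessels, and their kinase RNA counts only as far as it matched human genes. KDR, the main signalling receptor of VEGFA, was at 0.34, 0.50 and 0.47 TPM in TC and at 0.95, 1.78 and 0.43 TPM in TM. FLT1 was at 0.34, 0.27 and 0.16 TPM in TC and at 0.36, 0.68 and 0.060 TPM in TM, and FLT4 reached at most 0.33 TPM. The ligand VEGFD reached at most 0.040 TPM. None of these 4 genes passed the filter on low values. The neuropilins together exceeded the 3 kinases together by 34.3 to 164 times, and the kinases' sum was 0.913 ± 0.091 TPM in TC and 1.497 ± 1.07 in TM (n = 3, ± SD; exact permutation p = 0.5). The kinase sum was highest in TM2 (2.62 TPM) and TM1 (1.37 TPM), the libraries with muscle and most fibroblast RNA, and their part in it was not tested.

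THBS1, which encodes the matrix protein thrombospondin 1 (ENSG00000137801; chromosome 15, 39581079 to 39599466, plus strand), was at 273, 162 and 233 TPM in TC and at 243, 273 and 190 TPM in TM. The highest values of both groups were nearly equal and the lowest was in TC2. The means were 223 ± 56.4 and 235 ± 42.1 TPM (SD, n = 3), a log2 difference of -0.095 (SE 0.21, adjusted p = 0.877 in limma) with an interval of 0.666 to 1.32 times. The sign turned under median-of-ratios rescaling (0.084), without TC2 (0.12) and without TM2 (0.020). The thrombospondin receptor CD47 was at 36.7, 25.6 and 32.3 TPM in TC and at 31.4, 29.4 and 18.8 TPM in TM (log2 difference 0.26, SE 0.23, adjusted p = 0.645 in limma), whereas CD36 reached at most 0.22 TPM. The genes with the profile most like THBS1 were RHEBL1 (0.060) and TFPI2, a protease inhibitor (0.064).

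FGF2, basic fibroblast growth factor (ENSG00000138685; chromosome 4, 122826708 to 122898236, plus strand), was listed at 0, 0.020 and 0 TPM in TC and at 0.10, 0.020 and 0.030 TPM in TM. All 6 values lay far under the 1 TPM of the filter, so it was not tested and no fold is given. Of its relatives, FGF5 was the most abundant of the ligands listed, at 17.8 to 24.8 TPM, and the receptor FGFR1 averaged 25.6 ± 1.95 TPM in TC and 35.8 ± 0.995 in TM (n = 3, ± SD; log2 difference -0.47, SE 0.14, adjusted p = 0.151 in limma), with no overlap.

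**Figure D3:**
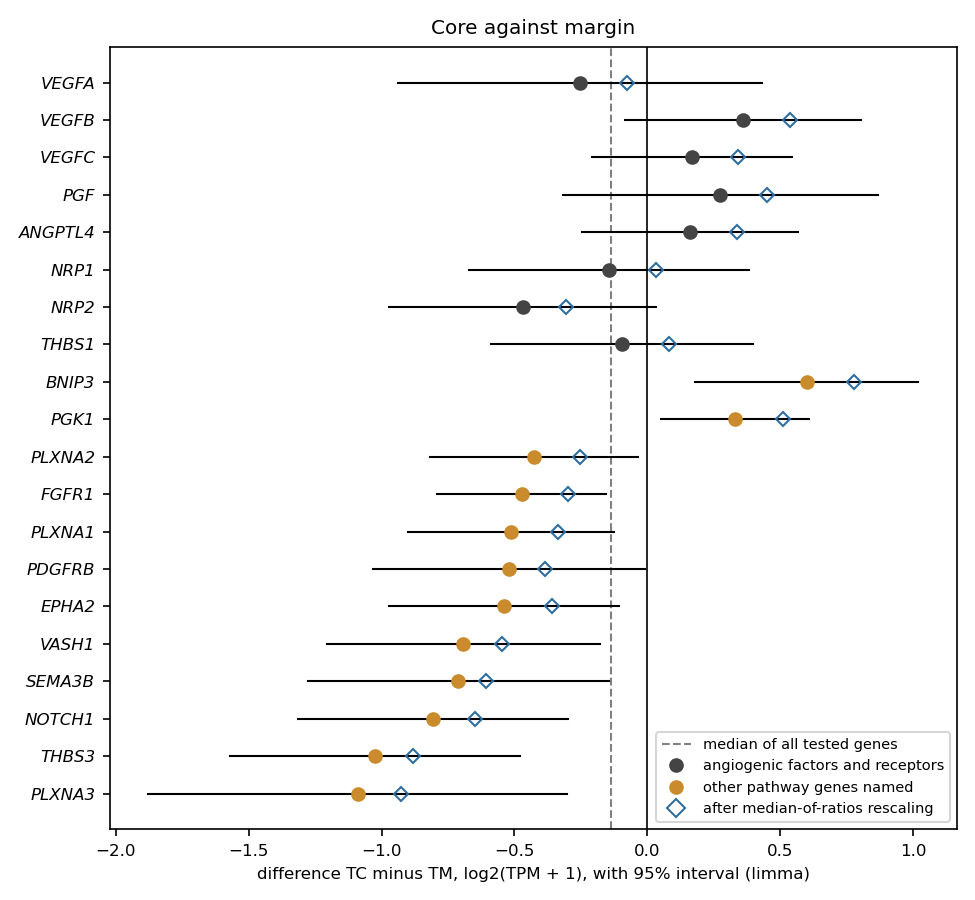
Differences TC minus TM in log2(TPM + 1) with 95% intervals from limma (filled points) for the 8 tested genes and for the other pathway genes named, and the same differences after median-of-ratios rescaling (open diamonds). The intervals of all 8 angiogenic genes cross 0, and the dashed line marks the median of all tested genes (-0.14).

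The spread between replicates was larger in TM than in TC for 7 of the 8 genes (SD of log2 values, all but THBS1), against 54.5% of all tested genes. After the values were seen, the place of TM3 was followed, since it lay apart for 3 of the factors. TM3 was 1.91 times the mean of TM1 and TM2 for VEGFA, 1.90 times for PGF and 1.44 times for ANGPTL4, but 0.696 times for VEGFB, 0.701 times for NRP1 and 0.736 times for THBS1. TM3 was the highest TM sample for those first 3 genes and also for 12 of 13 HIF targets, against 28.2% of all tested genes. The exception was DDIT4. The excess was large for CA9, a carbonic anhydrase (2.41 times), and NDRG1 (2.54 times), and 1.49 times for the mitophagy receptor BNIP3. It was smaller for KDM3A (1.26 times), SLC2A1 (1.10 times), PGK1 (1.06 times) and LDHA (1.06 times). For HIF1A itself, the oxygen-regulated subunit, RNA gives no level of the protein. HIF1A RNA was lowest in TM3 (35.6 TPM, against 48.2 to 73.3 TPM in the other samples). The part of the muscle and fibroblast RNA of TM1 and TM2 in this order was not tested.

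**Figure D4:**
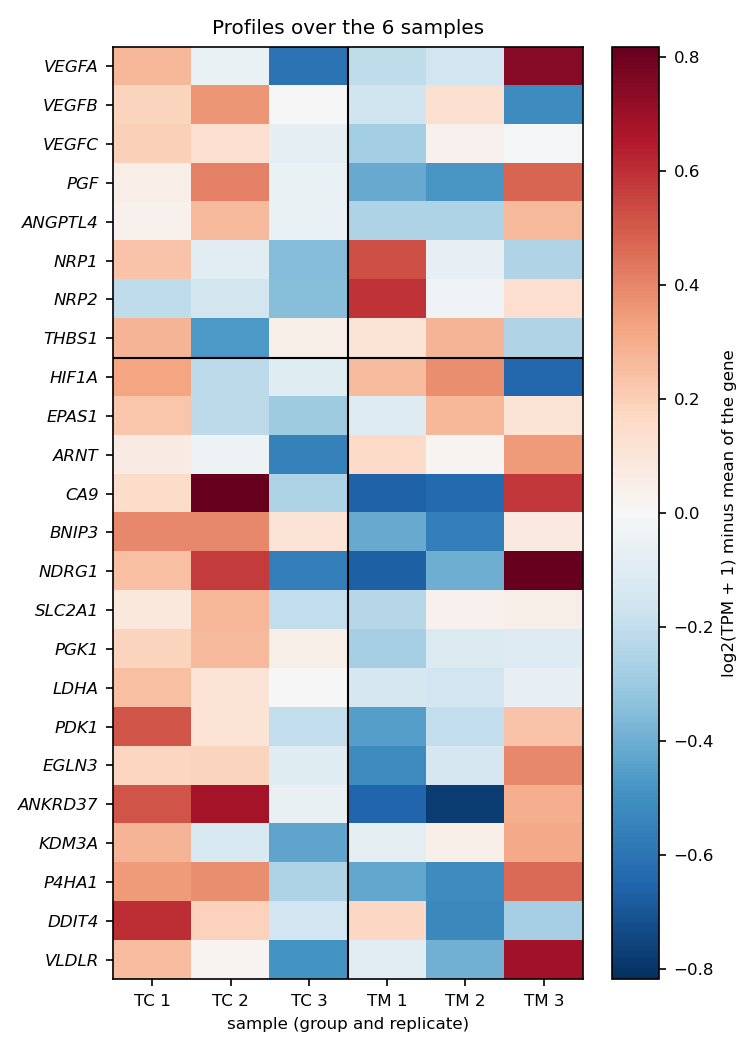
Heat map of the 8 tested genes (top) and of the HIF subunits and HIF targets (bottom) over the 6 samples, coloured by log2(TPM + 1) minus the gene's mean. In VEGFA, PGF and ANGPTL4, as in 12 of 13 HIF targets, TM3 lies above TM1 and TM2. TM3 is the highest of all 6 samples in only 5 of these 13 targets. VEGFB, NRP1, THBS1 and HIF1A are low in TM3.

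To place the 9 genes among their partners, 103 further genes of 10 angiogenic groups were examined, of which 70 were tested. In limma 0 of 70 passed the adjusted threshold, against 0.137% of all tested genes. At an unadjusted p under 0.05 there were 13 of 70, against 16.2% of all tested genes, so the total was near the background. Of these 13, 3 were higher in TC (1.93% of all tested genes) and 10 lower (14.2%). After median-of-ratios rescaling the split of such genes was 9 higher and 5 lower, and after quantile normalization it was 5 and 5. The median difference of the 70 was -0.046, against -0.14 for all tested genes.

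The class 3 semaphorins and plexins, which share the neuropilins as coreceptors, held 4 of those 10 lower genes among 10 tested. Of all tested genes, 14.2% were lower at that threshold. PLXNA1 averaged 44.8 ± 7.87 TPM in TC and 63.8 ± 6.72 in TM (n = 3, ± SD; log2 difference -0.51, adjusted p = 0.191 in limma), PLXNA2 averaged 20.5 ± 2.26 and 27.9 ± 4.11 TPM (-0.43, adjusted p = 0.268 in limma) and PLXNA3 averaged 9.62 ± 3.62 and 21.6 ± 8.50 TPM (-1.09, adjusted p = 0.175 in limma). The A-type plexins are the signalling partners of the neuropilins, and these 3 lay, like NRP2, higher in every TM than in every TC sample. SEMA3B, a ligand of the group, was at 1.01 ± 0.115 and 2.32 ± 0.624 TPM (-0.71, adjusted p = 0.210 in limma). In all, 4 of these 10 tested genes did not overlap, against 22.2% of all tested genes. After median-of-ratios rescaling the unadjusted p in limma was 0.0706 for PLXNA1 and 0.149 for PLXNA2. For PLXNA3 it was 0.0239 and for SEMA3B 0.0458.

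Among relatives of THBS1, THBS3 averaged 2.86 ± 0.201 TPM in TC and 6.95 ± 1.62 in TM (n = 3, ± SD; log2 difference -1.02, SE 0.24), the lowest adjusted p of the named genes (adjusted p = 0.0989 in limma). The other genes lower in every TC sample at an unadjusted p under 0.05 were NOTCH1 (-0.81, adjusted p = 0.137 in limma), the inhibitor VASH1 (-0.69, adjusted p = 0.184), the ephrin receptor EPHA2 (-0.54, adjusted p = 0.213) and PDGFRB, a pericyte and fibroblast receptor (-0.52, adjusted p = 0.303). PDGFRB belongs to the fibroblast markers whose sum was highest in TM1 and TM2, and their part in its difference was not tested.

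The HIF subunits and targets, which share HIF as a regulator with VEGFA and ANGPTL4, had 12 of 16 genes higher in TC, with a median difference of 0.21, against 33.0% of all tested genes, although after median-of-ratios rescaling 47.3% of all tested genes were lower in TC. At an unadjusted p under 0.05, 3 of 16 were higher, against 1.93% of all tested genes: BNIP3 at 183 ± 19.9 TPM in TC and 122 ± 30.0 in TM (n = 3, ± SD; log2 difference 0.60, adjusted p = 0.168 in limma), the glycolytic enzyme PGK1 at 1157 ± 86.7 and 919.8 ± 57.4 TPM (0.33, adjusted p = 0.232 in limma) and ANKRD37, whose groups overlapped (0.75, adjusted p = 0.283 in limma). VEGFA, with a difference of -0.25, had the sign opposite to these 3, and ANGPTL4 (0.16) the same sign. Neither sign was stable, as VEGFA was at 0.056 without TM3 and ANGPTL4 at -0.18 without TM1 and TM2. BNIP3 and PGK1 kept their sign in every alternative, but without TM1 and TM2 the differences were 0.22 and 0.27. The lowest TC level of BNIP3 (159.9 TPM in TC3) barely exceeded that of TM3 (156.2 TPM). For PGK1 the unadjusted p in limma was 0.0659 with a replicate block and 0.0697 without a trend. Tested were 1 of 7 angiopoietins and their receptors, 2 of 6 VEGF receptors and adaptors and 13 of 16 other secreted factors. Of these, 0 had an unadjusted p under 0.05 in limma, against 16.2% of all tested genes. With 1 and 2 genes tested in the first 2 groups, a count of 0 there tells little.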

How the data were processed

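RNA-seq of 3 TC and 3 TM samples had been deposited by the authors as 1 matrix of TPM per gene, scaled to a sum of 1000000 in each column (994381 in TM3). According to the study's methods, reads were trimmed with SeqPrep and Sickle, and the submitters' processing notes name hg38, HISAT2, StringTie and RSEM. The annotation release and tool versions are not given in the sources used here, and no step parting mouse from human reads was described. The study compared the zones with a count model, which TPM do not allow since they keep no depth, so limma was used in its place and no counting interval is given. The matrix held 60930 features, of which 259 unannotated loci were left out. The number of other value columns was 0. Symbols and positions came from GENCODE v29 (GRCh38) and gene tables.

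TC and TM were taken from the sample titles. Values were transformed as log2(TPM + 1), 1 TPM or more in 3 samples or more was required, and limma 3.58.1 in R 4.3.3 (empirical Bayes with a trend, two-sided, no covariate, Benjamini-Hochberg adjustment) was applied to 13861 genes. The script was tested on simulated data. Sums and ratios were compared by two-sided exact permutation tests. The members, lists, tests and alternatives were chosen with earlier results of these data known. Named were all 9 genes, FLT1, KDR, FLT4, VEGFD, CD36 and CD47, pathway genes with an unadjusted p under 0.05 and no overlap, and the 2 tested genes with a mean of at least 5 TPM and the nearest profile to VEGFA, ANGPTL4, NRP1 and THBS1. The other pathway genes printed, among them FGF5, CA9, NDRG1, ANKRD37, DDIT4, HIF1A, CXCL8, CXCL1 and ADM, were chosen after their values were seen. The replicate numbers were not treated as pairs, since no source used here states which samples share a mouse. Deviations of same-numbered samples correlated at 0.211, -0.121 and -0.165. Centred within only 3 samples, such deviations cannot decide whether pairs exist.

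Alternatives were a pseudocount of 0.1, no filter, a mean of at least 5 TPM, quantile and median-of-ratios scaling, TPM without mitochondrially encoded genes, a replicate block, no trend, and leaving out each sample. Leaving out TM1 and TM2 together was added after the data were seen. Promoter sequences came from RefSeq (GRCh38.p14), with 250 bases searched on both strands. Figures were drawn with matplotlib 3.10.9.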

Additional observations from a re-analysis of the deposited data

How the results depend on the processing

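In all 15 alternatives 0 of the 8 angiogenic genes were called in limma. The count at an unadjusted p under 0.05 in limma was 0 of 8 in the main fit, where 16.2% of all tested genes passed. It became 1 after quantile normalization (VEGFB) and 1 after median-of-ratios rescaling (VEGFB), each against 13.4% of all tested genes. Without mitochondrially encoded genes it was 1 (NRP2), against 18.4%. When single samples were left out it ranged from 0 to 2. These were NRP2 and VEGFB without TM2, against 13.7% of all tested genes, and PGF without TM3, against 19.2%. A count of 1 of 8 was thus near the share of all tested genes. The differences of VEGFB, VEGFC and NRP2 had 1 sign throughout, as had those of the 12 pathway genes named for their unadjusted p. The sign turned for VEGFA without TM3 (0.056), for PGF (-0.34) and ANGPTL4 (-0.18) without TM1 and TM2, for NRP1 after median-of-ratios rescaling (0.034), without TM1 (0.086) and without TM1 and TM2 (0.17), and for THBS1 after median-of-ratios rescaling (0.084), without TC2 (0.12), without TM2 (0.020) and without TM1 and TM2 (0.20). Over the analyses that left out 1 sample, the difference ranged from -0.45 to 0.056 for VEGFA, from -0.30 to 0.086 for NRP1 and from -0.26 to 0.12 for THBS1. The causes were not tested.

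Of all tested genes 19 were called, but 7 with a pseudocount of 0.1, 1 without a filter, 4 after quantile normalization, 6 after median-of-ratios rescaling, 12 without a trend, 1 to 17 when single samples were left out, and 195 without TM1 and TM2 (95 higher and 100 lower in TC). With the replicate number as a block 1 gene was called, 0 of the 8 angiogenic genes among them. Of the 70 pathway genes, 12 then had an unadjusted p under 0.05 in limma, against 13.9% of all tested genes. The main count was 13, against 16.2% of all tested genes (8 to 17 when single samples were left out). Only TC1 and TM1 correlated best with their own number, while TC2 matched TM3 and TC3 matched TM2. Groups of 3 samples of unknown depth leave intervals that, for the 8 genes, span from 0.510 to 1.82 times the TM level.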

Other observations

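Among other secreted angiogenic factors, the neutrophil chemokines CXCL8 and CXCL1, named after their values were seen, spread far more widely than any of the VEGF-type ligands. CXCL8 was at 188, 55.6 and 450 TPM in TC1 to TC3 and at 42.6, 219 and 34.5 TPM in TM1 to TM3 (log2 difference 1.27, SE 0.84, limma adjusted p = 0.527). CXCL1 was at 69.3, 21.6 and 220 TPM in TC and at 24.3, 164 and 15.5 TPM in TM (log2 difference 0.79, SE 0.98, limma adjusted p = 0.760). TC3 and TM2 were the highest samples of their groups for both genes, and the groups overlapped. ADM, the vasodilator peptide adrenomedullin, was at 71.1, 77.1 and 51.4 TPM in TC and at 33.9, 34.7 and 68.4 TPM in TM (log2 difference 0.59, SE 0.28, limma adjusted p = 0.363), so that TM3 again lay above TM1 and TM2, as for VEGFA, PGF and ANGPTL4.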
